A study of Mus musculus with 41 samples.

Results

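Dmrt1 and Kank1 are neighbouring genes on mouse chromosome 19, described here in sorted testicular germ cells and cultured germline stem cells. They are 2 of the 55536 genes in each count table, and with them come the 2 RHOX10 peaks, of 5147, that the authors' peak table assigns to either gene or that overlap either gene. The pair was chosen from the peak table, in which a peak given to Dmrt1 lies inside Kank1, and the peak values are therefore given as a description with no test. The expression tests were not part of that choice, but the lower Dmrt1 in 2 of the comparisons below was known when the pair was chosen.

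DMRT1 is a DNA-binding protein with a DM domain. It keeps Sertoli cells male and, in spermatogonia, holds back meiosis and is needed to maintain the stem cell pool, so the gene is active in both germ cells and Sertoli cells of the testis. KANK1 is a scaffold with ankyrin repeats at the cell cortex, where it binds talin and liprins and ties microtubule ends to focal adhesions. RHOX10 is an X-linked homeobox transcription factor of the male germ line.

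All 41 samples came from C57BL/6 mice. RNA-seq used testicular germ cells sorted for a green fluorescent reporter driven by Oct4, from wild-type animals (4 libraries) and animals labelled Rhox10-null (4 libraries), each library a pool of testes from 3 individuals whose age was not given in the sources used here. iSLAM-seq, which reads RNA from its 3′ end after a transcription factor is switched on, used cultured germline stem cells of newborn testes in which Rhox10 had been knocked down with a short hairpin RNA in every sample. These cells carried either a Rhox10-ERT2-mCherry fusion, which responds to 4-hydroxytamoxifen, or an ERT2-mCherry empty vector (Ctrl), and 2 libraries per vector were made at 0, 0.5, 1, 2, 4 and 8 h. CUT&Tag, which tags DNA at an antibody's target, used cells with the same knockdown and a tagged Rhox10 (RHOX10 and IgG groups) or a tagged empty vector (Ctrl), 3 libraries in each group.

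The labels were examined on Rhox10 itself. The gene had 3 to 10 counts in wild-type RNA-seq libraries and 4 to 11 in those labelled null, so these counts do not verify the genotype, and the groups are named by their labels throughout. In iSLAM-seq Rhox10 stood at 34 to 46.7 CPM (library-scaled counts, here on TMM-scaled library sizes) with the fusion and 0.202 to 2.42 CPM in Ctrl, and the vectors stood apart at 0 h already. RNA-seq libraries held 6602089 to 8278887 counts, of which 1 gene took 50.98% to 59.37%, and iSLAM-seq libraries held 9419615 to 12645845. The Ctrl libraries at 0.5 h differed most from each other, with a chi-square per degree of freedom of 26.64 against at most 4.57 for any other pair, and the main values that rest on them are also given without the 0.5 h libraries, a choice made after seeing the data. In RNA-seq the libraries numbered 4 differed most from their groups. Pairs with them gave 4.02 to 4.49 in those labelled null, against 1.37 to 1.54 for the rest. In wild-type such pairs gave 1.72 to 2.71, against 1.22 to 1.63. Markers of other testicular cells were present in the sorted cells: 7 of 8 stromal and myoid, 4 of 5 Leydig, 3 of 4 endothelial, 3 of 5 macrophage and 6 of 6 tested erythroid markers were higher in libraries labelled null (edgeR, adjusted p under 0.05). In that comparison 18.6% of all 13538 genes tested were higher. The summed stromal level was 444 to 470 CPM in wild-type and 705 to 745 CPM in libraries labelled null, and the erythroid sum 1.36 to 4.07 and 78.3 to 86.8 CPM.

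The sequences of the 2 peaks are shown because both peaks lie at start sites of Kank1 and neither at one of Dmrt1. In GENCODE M21 (GRCm38 build) Kank1 runs from 25236975 to 25434496 on the plus strand of chromosome 19 and Dmrt1 from 25505618 to 25604329 on the same strand, 71.1 kb downstream. The first peak, chr19:25236458-25236979, overlaps the first 5 bases of Kank1, and the table names Kank1 as its gene. Below are the 274 bases of that peak that precede every Kank1 start in GENCODE M21 and RefSeq, followed by 30 bases of the second peak, chr19:25406416-25406896. Both are the plus strand of GRCm38, taken from the RefSeq assembly. Capitals mark matches to TAAT, the short core bound by many homeodomain proteins, to CCAAT and to GGGCGG, on either strand.
Kank1 upstream peak, chr19:25236458-25236731: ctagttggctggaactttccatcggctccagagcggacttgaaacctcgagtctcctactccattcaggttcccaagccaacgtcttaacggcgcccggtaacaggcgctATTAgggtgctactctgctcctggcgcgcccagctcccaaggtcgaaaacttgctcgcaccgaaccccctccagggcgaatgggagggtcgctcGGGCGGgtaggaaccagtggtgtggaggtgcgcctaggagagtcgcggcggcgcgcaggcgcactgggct
Kank1 internal peak, chr19:25406599-25406628: cgggaacagtggCCAATtgtggccctgccc

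The 2 peaks differ in base composition. Over the 300 bases about its midpoint the upstream peak had 66.3% G and C and 29 CG dinucleotides, close to the medians of all peaks (66.0% and 25, over 5143 peaks). The internal peak had 57.3% and 8. In these windows the upstream peak held 1 TAAT and 1 GGGCGG match, and the internal peak held 2 CCAAT matches and none of the other motifs searched. Over all peaks, 26.9% of windows held TAAT, 33.9% CCAAT and 69.5% GGGCGG on either strand. ACANTGT, part of the sequence that DM domain proteins bind, occurred in 2.9% of windows and in neither of the 2, and TATAAA in 2.6% and in neither. Matches of CCAAT and TAAT do not overlap each other or GGGCGG in the sequences shown. They describe letters and were not tested as binding sites.

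The annotation of the internal peak differed between the authors' table and the gene models used here, and the reason was not tested. In the authors' table its midpoint is 4 bases from the start of a transcript of Dmrt1 and its class is promoter. The RefSeq model of that same named transcript starts at 25505706. In GENCODE M21 the midpoint, 25406656, lay 43 bases upstream of the start of Kank1-203 (25406699), an internal start of Kank1, and 17 bases upstream of the nearest RefSeq start of Kank1 (25406673). All 3 Dmrt1 transcripts of GENCODE M21 start between 25505618 and 25505707, as do both of RefSeq, and the peak lay 99.0 kb upstream of the first of them. Such a disagreement was rare in the table: of 5029 peaks whose gene could be compared, 4736 had a stated distance within 100 bases of one computed from GENCODE M21, and 19 were off by more than 10 kb. The upstream peak had a stated distance of -484 bases to Kank1, and its midpoint lay 257 bases upstream of the GENCODE M21 start. Both count tables give 1 count per gene, so transcripts from the different Kank1 starts cannot be told apart in them.

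Both peaks were of middling height. The upstream peak scored 196.7 and the internal peak 208.7 in the authors' scores, which rank 1629 and 1517 among the 5147 peaks (median score 127.5, upper quartile 238.2). Both list all 3 RHOX10 libraries, as every peak of the table does. No peak lay within 50 kb of a Dmrt1 start or inside the Dmrt1 gene. The nearest peak outside the rule began 1630 bases past the end of Dmrt1 (score 208.1), in the interval before Dmrt3, and 2 more lay at the starts of Dmrt3 (172.2) and Dmrt2 (210.5), the other DM domain genes of the cluster. The whole window of 1 Mb on either side held these 5 peaks.

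**Figure D1:**
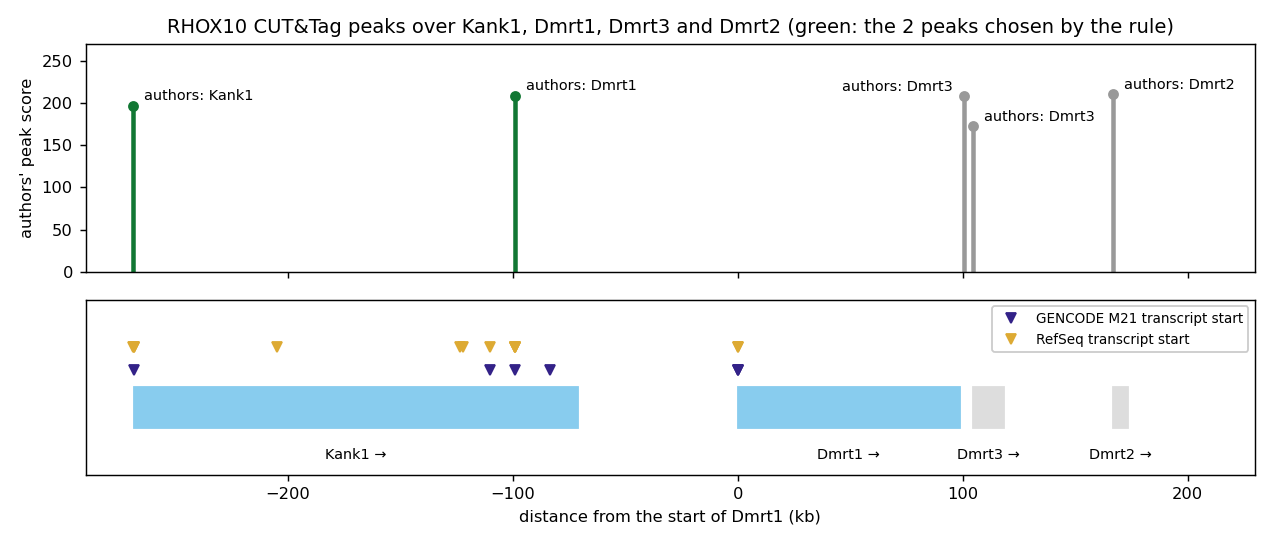
Authors' scores of RHOX10 peaks (upper panel) and gene models (lower panel; blue and grey bars are genes, triangles transcript starts) by distance in kb from the start of Dmrt1. The 2 peaks chosen by the rule, in green, stand over starts of Kank1, the second of them 99.0 kb upstream of Dmrt1 although the table names it Dmrt1.

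RNA-seq compared the genotypes. Dmrt1 (ENSMUSG00000024837) was lower in libraries labelled null, while for Kank1 (ENSMUSG00000032702) no difference was called. Dmrt1 stood at 37, 33.4, 30.2 and 35 CPM in the wild-type libraries and at 26, 21.1, 21.9 and 23.1 CPM in those labelled null. The highest library labelled null lay below the lowest wild-type one. The log2 fold change was -0.56 (standard error 0.0736, edgeR adjusted p = 6.2e-08), a level 68% of wild-type. Of 13538 genes tested, 37.5% were called at an adjusted p under 0.05, 18.6% higher and 18.9% lower, so a call of this kind was common.

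Kank1 stood at 14.9, 17.5, 17.1 and 16 CPM in wild-type and 15.5, 15.6, 17.9 and 16.7 CPM in libraries labelled null. The 2 groups overlapped, and the log2 fold change was 0.01 (standard error 0.0905, edgeR adjusted p = 0.963). The counts behind these values were 99 to 149 per library for Kank1 and 159 to 258 for Dmrt1. Per kilobase of exon, Dmrt1 was the more abundant transcript, at 11.6 to 14.3 RPKM in wild-type against 2.41 to 2.84 RPKM for Kank1. In libraries labelled null Dmrt1 was at 8.12 to 10 RPKM and Kank1 at 2.52 to 2.9 RPKM. A minus-strand gene, AC126944.1, lies inside Kank1, with a wild-type mean of 2.46 ± 0.512 CPM (SD, n = 4), and whether the counting used strand was not given in the sources used here.

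Whether either gene went up or down depended on what it was measured against. The core germ cell list, 17 genes such as Ddx4, Dazl and the piRNA factors Tdrd1 and Piwil2, was lower throughout. Of its tested genes 16 of 16 fell, where 18.9% of all genes did. Their median log2 fold change was -0.83 against 0.003 for all genes. Dmrt1 fell less than 15 of these 16. Counted per 1000 core germ cell counts within each library, Dmrt1 was at 106, 103, 93.6 and 105 in wild-type and 144, 112, 127 and 130 in libraries labelled null. On that measure every library labelled null lay above every wild-type library. Kank1 was at 42.7, 53.9, 53.1 and 48 per 1000 in wild-type and 86, 83.2, 104 and 93.8 in libraries labelled null. With libraries scaled to the core germ cell genes, the median of all genes moved to 0.889 and 90.6% of genes were called. The log2 fold change of Dmrt1 then turned to 0.33 (edgeR adjusted p = 0.00017), below that median. That of Kank1 became 0.89 (edgeR adjusted p = 1.05e-11), level with the median. Plain library totals moved the median of all genes to 0.350 and called 58.0% of genes. With them Kank1 was also called higher, by 0.36 (edgeR adjusted p = 0.00103).

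The ratio of the 2 genes needs no scaling. There were 2.48, 1.91, 1.76 and 2.19 Dmrt1 counts per Kank1 count in the wild-type libraries and 1.68, 1.35, 1.22 and 1.39 in those labelled null. The means were 2.08 ± 0.318 and 1.41 ± 0.194 (SD, n = 4 each), and the ranges did not overlap. Sertoli cells, the other testicular source of Dmrt1, were represented in the sorted cells by their markers, 10 of 11 of which were tested. Their sum was 638 to 686 CPM in wild-type and 672 to 695 CPM in libraries labelled null, with Amh (log2 fold change 0.43) and Inha (0.12) higher, Aard (-0.86) and Cldn11 (-0.73) lower (0.03 and 0.15 with germ cell scaling, not called) and the other 6 not called. The call of Inha was lost without any 1 of 6 libraries. The core germ cell list summed to 322 to 348 CPM in wild-type and 173 to 188 CPM in libraries labelled null. That was less than the Sertoli and the stromal sums in either group, though sums over different genes do not give shares of cells. In such bulk samples fewer cells of a type and less RNA per cell cannot be told apart. The part of the Sertoli and stromal markers in the Dmrt1 and Kank1 values was not tested.

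**Figure D2:**
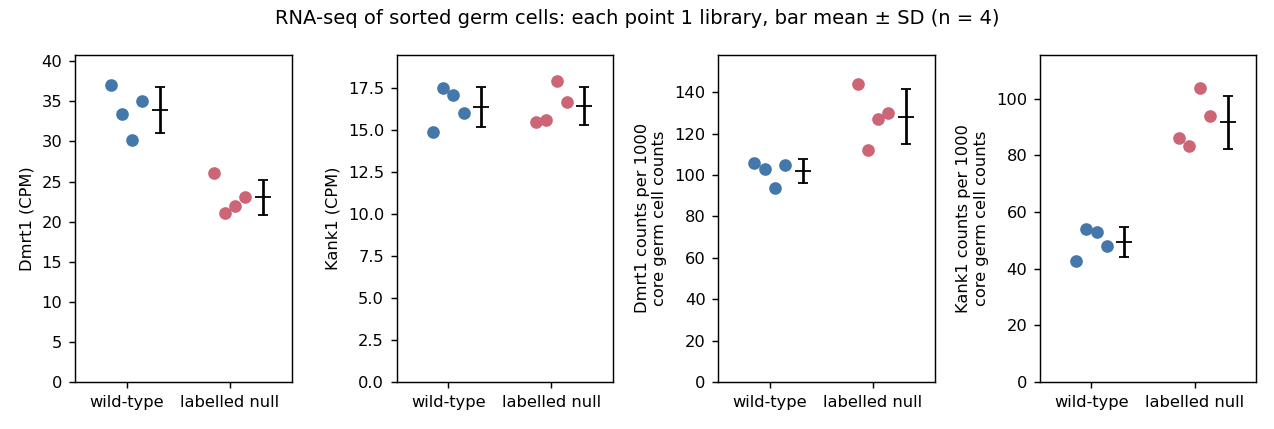
Dmrt1 and Kank1 in each RNA-seq library in CPM (left pair) and per 1000 counts of the core germ cell list (right pair), with group means ± SD beside the points. Dmrt1 is lower in libraries labelled null in CPM and higher per 1000 counts of that list. Kank1 is level in CPM and higher per 1000 counts of that list. Most genes rise on such a measure: scaled to that list, 90.6% of genes are called and the median of all genes is 0.889 log2. Dmrt1 lies below that median and Kank1 is level with it.

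iSLAM-seq asked which transcripts move when RHOX10 becomes active in cultured germline stem cells. Dmrt1 was lower with the fusion at every time, 0 h included, and no change of that gap after 4-hydroxytamoxifen was called. The Ctrl libraries of 0 h held 426 and 395 CPM of Dmrt1, those of 0.5 h 472 and 523, those of 1 h 476 and 455, those of 2 h 487 and 515, those of 4 h 498 and 493, and those of 8 h 511 and 496. The fusion libraries, in the same order of times, held 375 and 331, 408 and 373, 399 and 377, 456 and 416, 419 and 416, and 454 and 425 CPM. Both fusion libraries lay below both Ctrl libraries at 6 of 6 times.

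Averaged over 0.5 to 8 h, Dmrt1 differed by a log2 fold change of -0.25 (standard error 0.0328, edgeR adjusted p = 1.65e-06), in a contrast that called 37.1% of 20642 genes, 18.7% higher and 18.4% lower. At 0 h, before the inducer, the log2 fold change was already -0.22 (adjusted p = 0.0599, 10.9% of genes called). The 0.5 h libraries gave -0.35 (edgeR adjusted p = 0.00211, 14.5% called), those of 1 h -0.26 (0.0234, 9.91%) and those of 4 h -0.25 (0.0286, 12.2%), all past the threshold. The 2 h libraries gave -0.20 (edgeR adjusted p = 0.0934, 10.0%) and those of 8 h -0.20 (0.0711, 16.8%), neither called. Standard errors lay between 0.0732 and 0.0735. The contrasts at single times compare separate libraries, but their p-values share an estimate of spread from all 24 libraries and are not independent. The contrasts of 0.5 to 8 h together make up the average. Without the 0.5 h libraries the average was -0.21 (edgeR adjusted p = 1.08e-09). The test of whether the difference moved from 0 h gave an edgeR adjusted p of 0.906 for Dmrt1 (2.39% of genes called).

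The calls at single times sat close to the threshold. Without either Ctrl library of 0.5 h, Dmrt1 was also called at the remaining times of 0, 2 and 8 h (edgeR adjusted p = 0.000974 and 0.00135, 0.00363 and 0.00301, 0.00832 and 0.0027, in that order). The 0 h difference was called too without the first fusion library of that time (-0.32, edgeR adjusted p = 0.0364). The call at 0.5 h was lost without the second fusion library of that time (adjusted p = 0.0523). The call at 1 h was lost without any of the 4 libraries of 1 h, either Ctrl library of 4 h or the first fusion library of 4 h, and that at 4 h without any of the 4 libraries of 4 h, either Ctrl library of 8 h, the first fusion library of 8 h or either fusion library of 0 h (adjusted p up to 0.246 and 0.255). Core germ cell genes again moved the same way in the averaged contrast, where 18.4% of all genes were lower. Of 17, 13 were lower (13 also without the 0.5 h libraries) and 0 higher, with a median of -0.32 against 0.001 for all genes. Further below Ctrl than Dmrt1 were 12 of the 17. Scaled to the core germ cell genes, the averaged log2 fold change of Dmrt1 was -0.04 (edgeR adjusted p = 0.57), beside a median of 0.216 for all genes. Per 1000 core germ cell counts, Dmrt1 was at 171 and 159 in Ctrl and 183 and 159 with the fusion at 0 h, and at 195 and 191 against 207 and 198 at 8 h.

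Kank1 behaved differently. It fell over 8 h in Ctrl, while with the fusion its 8 h libraries were within the range of its 0 h libraries. The Ctrl libraries of 0 h held 18.3 and 17.1 CPM of Kank1, those of 0.5 h 17.1 and 11.6, those of 1 h 16.3 and 12.9, those of 2 h 18.7 and 12.5, those of 4 h 10.7 and 9.37, and those of 8 h 7.24 and 7.22. The fusion libraries, in the same order of times, held 17.5 and 18.4, 19.9 and 24.1, 16.6 and 20.5, 10.2 and 15.8, 8.61 and 12.5, and 17.6 and 17.8 CPM. Both fusion libraries lay above both Ctrl libraries at 0.5, 1 and 8 h, and the vectors overlapped at 0, 2 and 4 h.

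At 8 h the counts were 76 and 71 in Ctrl and 170 and 184 with the fusion, a log2 fold change of 1.29 (standard error 0.253, edgeR adjusted p = 0.00083). In that contrast 8.06% of genes were higher and 8.79% lower. The call held without each of the 24 libraries in turn, with adjusted p up to 0.0115. At no other time was a difference called. The log2 fold changes of 0, 0.5, 1, 2 and 4 h were 0.02, 0.62, 0.34, -0.26 and 0.07 in turn, with standard errors of 0.233 to 0.251 and edgeR adjusted p of 0.972, 0.084, 0.441, 0.601 and 0.913. The 0.5 h difference was called once the first Ctrl library of that time was left out (0.91, edgeR adjusted p = 0.0057). The average of Kank1 over 0.5 to 8 h was 0.41 (standard error 0.108, edgeR adjusted p = 0.00395), and 0.37 (adjusted p = 0.00478) without the 0.5 h libraries.

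**Figure D3:**
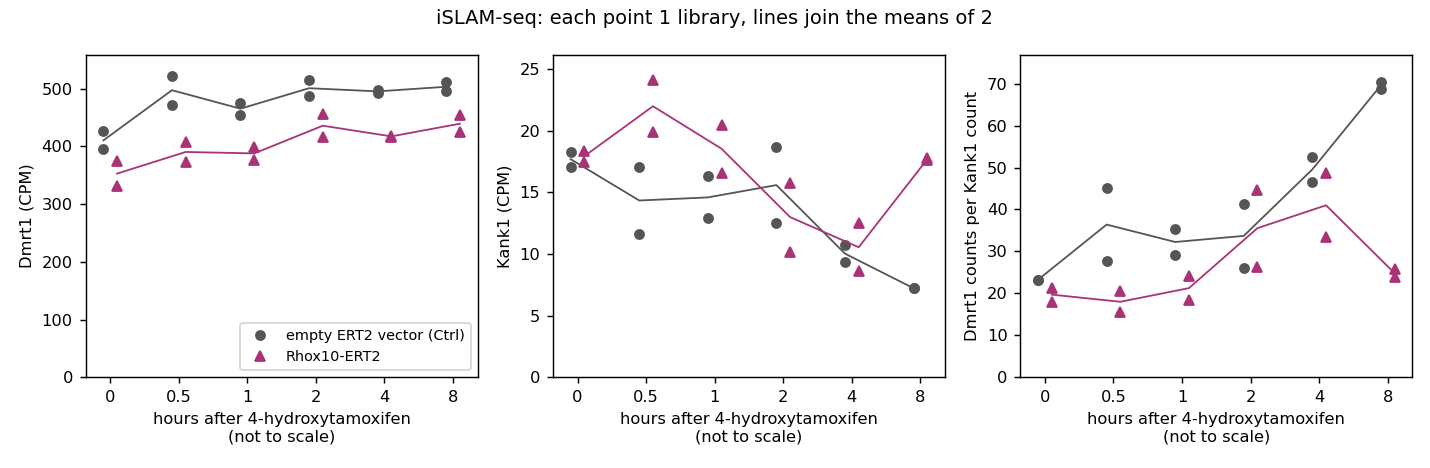
Dmrt1 and Kank1 in CPM and Dmrt1 counts per Kank1 count in each iSLAM-seq library, by hours after 4-hydroxytamoxifen (circles, Ctrl; triangles, Rhox10-ERT2; lines join means of 2). Dmrt1 is lower with the fusion at every time, and Kank1 in Ctrl declines to 7.24 and 7.22 CPM at 8 h while the fusion libraries are at 17.6 and 17.8.

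Within Ctrl the decline of Kank1 from 0 to 8 h was -1.29 on the log2 scale (standard error 0.251, edgeR adjusted p = 0.00243, 6.52% of genes called), to 41% of the starting level. The F-test over all later times was also called in Ctrl (adjusted p = 0.0149, 5.74% called), though not without either Ctrl library of 8 h (0.0842 and 0.0856). With the fusion the change from 0 to 8 h was -0.02 (standard error 0.234, edgeR adjusted p = 0.977), whereas that from 0 to 4 h was -0.77 (standard error 0.24, adjusted p = 0.0597). Its F-test was called (adjusted p = 0.0321, 9.44% called), but not without the second fusion library of 0.5 h, the first of 2 h, the first of 4 h or either of 8 h (adjusted p from 0.0514 to 0.188).

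Whether the vectors diverged after 0 h was tested directly. Over all 5 later times the edgeR adjusted p for Kank1 was 0.0989, and it was 0.00361 with all 0.5 h libraries left out, 0.000315 without the first Ctrl library of 0.5 h and 0.00392 without the second. It was also under the threshold without the second Ctrl library of 2 h (0.0496) or the second fusion library of 2 h (0.0446). The 8 h part alone was a log2 difference of 1.27 (standard error 0.344, edgeR adjusted p = 0.0497, 2.57% of genes called). That call was lost without any 1 of 16 libraries (adjusted p up to 0.145), which were all those of 0, 1 and 8 h, both Ctrl libraries of 4 h and both fusion libraries of 0.5 h, while the size stayed between 1.24 and 1.34 in all 24 fits. It was also lost with germ cell scaling (1.27, edgeR adjusted p = 0.0549).

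Dmrt1 itself was higher at 8 h than at 0 h in both vectors. The change was 0.30 in Ctrl (standard error 0.0733, edgeR adjusted p = 0.0159) and 0.32 with the fusion (standard error 0.0736, adjusted p = 0.00811, 7.18% of genes called). In Ctrl the call was lost without any 1 of the 4 Ctrl libraries of 0 and 8 h (adjusted p up to 0.227), and with the fusion without the second fusion library of 0 h or the first of 8 h (adjusted p up to 0.18). Scaled to the core germ cell genes neither was called (0.22 and 0.24, edgeR adjusted p = 0.25 and 0.201). Dmrt1 counts per Kank1 count went from 23.3 and 23.2 at 0 h to 70.5 and 68.7 at 8 h in Ctrl, and from 21.4 and 18 to 25.7 and 23.9 with the fusion.

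**Figure D4:**
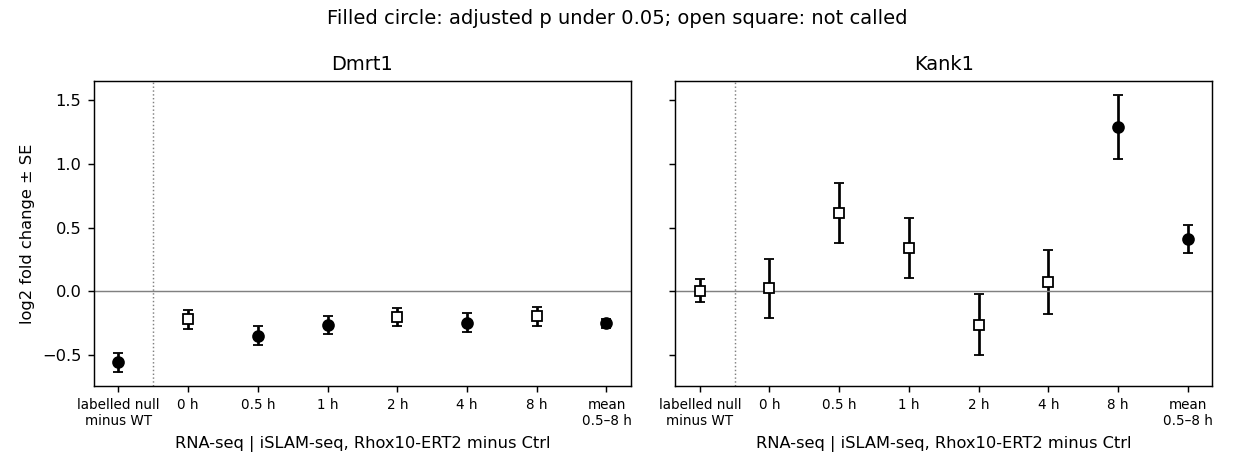
Log2 fold changes ± SE of Dmrt1 and Kank1 in the RNA-seq comparison and at each iSLAM-seq time (filled, adjusted p under 0.05; open, not called). With TMM scaling Dmrt1 lies between -0.56 and -0.20 in every comparison drawn, and Kank1 departs most from 0 at 8 h, at 1.29. Scaled to germ cell genes, Dmrt1 in RNA-seq turns to 0.33, where the median of all genes is 0.889.

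Among DM domain genes, 4 of 9 were tested in RNA-seq and 2 were called, in a comparison that called 37.5% of all genes. The 2 were Dmrt1 and Dmrta1. Dmrta1 fell from 5.47 ± 0.416 to 2.7 ± 0.574 CPM (SD, n = 4), a log2 fold change of -1.0 (edgeR adjusted p = 3.92e-05). Dmrt3 was at -0.20 and Dmrtc2 at -0.08 on the log2 scale, neither called. Both were called higher with germ cell scaling (0.68 and 0.80), below the median of 0.889 for all genes. Dmrta1 was not called with that scaling (-0.12, edgeR adjusted p = 0.562). In the averaged iSLAM-seq contrast, which called 37.1% of all genes, 8 of the 9 were tested and 2 called. Dmrta2 was higher with the fusion (0.44, edgeR adjusted p = 0.00218), Dmrt1 lower, and Dmrt3 (-0.15) and Dmrt2 (-0.35), whose start sites carry RHOX10 peaks, were not called. Without the 0.5 h libraries Dmrt2 was called lower (-0.55, edgeR adjusted p = 0.0163). At 8 h edgeR called 0 of the 8 DM domain genes and 16.8% of all genes. Dmrta2 came closest (0.69, edgeR adjusted p = 0.052) and was called without any 1 of 8 libraries, with library totals and with germ cell scaling (0.75 and 0.96).

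All 4 KANK genes were tested in both assays. In RNA-seq Kank2 rose from 22.9 ± 1.9 to 28 ± 0.87 CPM (SD, n = 4; log2 fold change 0.29, edgeR adjusted p = 0.0015) and Kank3 by 0.52 (adjusted p = 0.0107, but 0.0508 without both libraries numbered 4), while Kank4 was at 0.33 and Kank1 at 0.01, not called. With the fusion at 8 h Kank3 moved opposite to Kank1, at 36.1 to 36.3 CPM against 56 to 63.9 CPM in Ctrl (log2 fold change -0.73, edgeR adjusted p = 0.000533). Averaged over 0.5 to 8 h, Kank3 (-0.23) and Kank4 (-0.31) were lower and Kank2 (-0.06) was not called. With germ cell scaling Kank3 (-0.02) and Kank4 (-0.10) were not called and Kank2 was called higher (0.15), beside a median of 0.216 for all genes. The call of Kank4 (edgeR adjusted p = 0.0356) was lost without 15 of the 24 libraries, each left out singly (adjusted p up to 0.12).

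**Figure D5:**
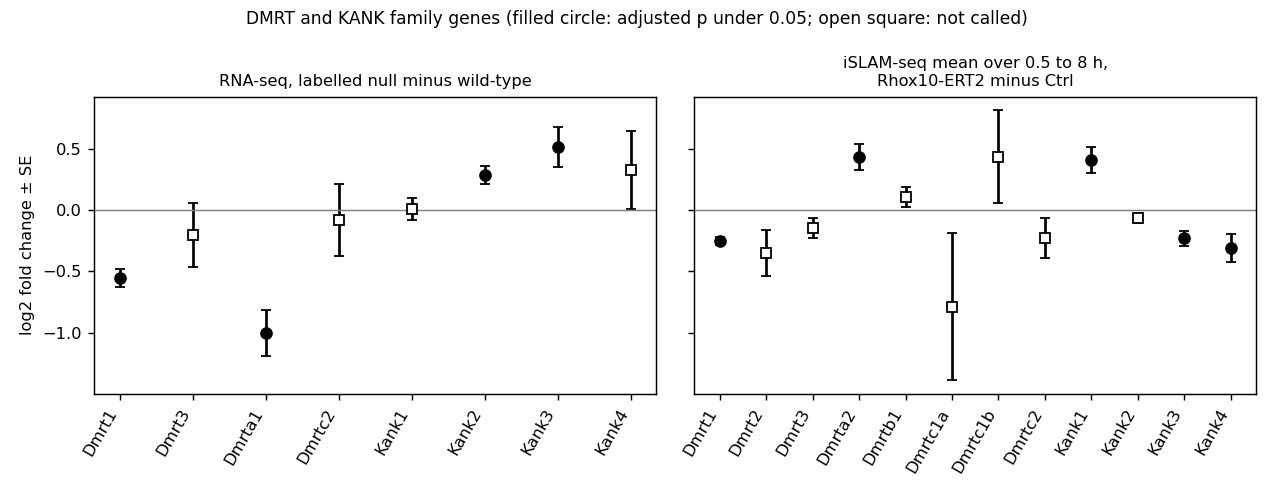
Log2 fold changes ± SE of the tested DM domain and KANK genes in RNA-seq (left, libraries labelled null minus wild-type) and in the averaged iSLAM-seq contrast (right, Rhox10-ERT2 minus Ctrl). With TMM scaling Dmrt1 is below 0 in both (-0.56 and -0.25), and Kank1 is at 0.01 in RNA-seq and 0.41 in iSLAM-seq. Scaled to germ cell genes, Dmrt1 is at 0.33 and -0.04, where the medians of all genes are 0.889 and 0.216.

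Partners of KANK1 at the cell cortex, 15 genes for talins, liprins, CLASPs, KIF21 kinesins, LL5 proteins, 14-3-3 proteins, ELKS (Erc1), a dynein light chain (Dynll1) and IRSp53 (Baiap2), were called in both directions. In RNA-seq 5 rose, 2 fell and 8 were not called, in a comparison that called 37.5% of all genes, with a median of 0.08 against 0.003 for all genes; the largest rises were Clasp2 (0.32) and Kif21b (0.30), and the falls were Dynll1 (-0.29) and Ywhah (-0.18), whose signs turned with library totals (0.06 and 0.17) and germ cell scaling (0.60 and 0.71). The call of Ywhah was also lost without any 1 of 6 libraries. In the averaged iSLAM-seq contrast, which called 37.1% of all genes, 6 were higher and 3 lower with and without the 0.5 h libraries (median 0.01 with them), led by Phldb2 (0.53) and Kif21b (0.45) and by Ppfia1 (-0.36) and Tln2 (-0.25). At 8 h, where 16.8% of all genes were called, 4 were higher, Phldb2 (0.73), which codes for an LL5 protein that anchors microtubule ends, and Kif21b (0.84, not called without any 1 of 3 libraries) among them, and 3 lower. At 0 h, before the inducer, where 10.9% of all genes were called, 5 were already higher and 1 lower. Phldb2 was then at 0.52 (edgeR adjusted p = 0.023) and Kif21b at 0.72 (0.0594), and their changes from 0 to 8 h of 0.21 and 0.12 were not called (edgeR adjusted p = 0.75 and 0.935). Baiap2 was the 1 partner called for that change (-0.83, edgeR adjusted p = 0.00885), named here after its value was seen.

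Spermatogonial genes with known ties to DMRT1 were counted likewise. In RNA-seq, where 18.9% of all genes were lower, 6 of 9 tested fell, Zbtb16 (-1.66), a stem cell factor, and Stra8 (-1.36), a gene of meiotic entry, the most, while Rec8 rose (1.17, a call lost without 1 library) and Pou5f1 and Rarg were not called. Their median was -0.88, beside -0.83 for the core germ cell genes. With germ cell scaling, which called 90.6% of all genes, 3 of the 9 were higher and 1 lower. Their median was then 0, beside 0.889 for all genes. Zbtb16 was at -0.77 and Stra8 at -0.48, the latter not called (edgeR adjusted p = 0.075). With the fusion, averaged over 0.5 to 8 h, 5 of 11 were higher and 4 lower with a median of -0.10, in a contrast that called 37.1% of all genes: the largest differences were Crabp2 (0.68) and Stra8 (0.41) upward and Sohlh1 (-0.56) and Sall4 (-0.44) downward. Without the 0.5 h libraries 5 were higher and 5 lower, with a median of 0.07. All 4 named genes were already called at 0 h, at 0.59, 0.60, -0.55 and -0.29 in that order (edgeR adjusted p up to 0.0136), and their changes from 0 h were not called (edgeR adjusted p from 0.716 to 0.979).

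Calls among the genes around the pair are read against the shares of all genes called, 37.5% in RNA-seq and 37.1% in the iSLAM-seq average. Of 34 genes within 1 Mb, 10 were tested in RNA-seq and 2 called: besides Dmrt1 only Gm10053 was called (-0.35, edgeR adjusted p = 0.0127; 0.54 with germ cell scaling); Pip5k1b, Fam122a, Cbwd1, Dock8, AC126944.1 and Dmrt3 lay between -0.31 and -0.06, not called. Dock8, the gene just upstream of Kank1, was at -0.31 (edgeR adjusted p = 0.0552) and was called without any 1 of 3 libraries. It turned to 0.57 with germ cell scaling, where the median of all genes was 0.889. In iSLAM-seq 13 were tested and 3 called in the average: Kank1 higher, Dmrt1 lower, and Tmem252 lower (-1.31, edgeR adjusted p = 0.000187). Tmem252 was at 5.9 and 6.57 CPM in Ctrl and 0.484 and 1.24 CPM with the fusion at 8 h, a log2 fold change of -2.85 (edgeR adjusted p = 0.0015), from 4 to 69 counts over the libraries of 0 and 8 h. Pgm5, 2610016A17Rik and Dmrt2 were tested in iSLAM-seq alone and not called.

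Genes whose levels ran most alike were listed over the 24 iSLAM-seq libraries, by Pearson's r of log2 CPM among 11020 genes. These libraries share 2 vectors and 6 times, so the values describe likeness of profile. For Dmrt1 they included Alyref (0.95), Rpl26 (0.936), Ssb (0.927) and Rpl13 (0.92). For Kank1 they were Ctdspl (0.873), Mixl1 (0.864), Enho (0.843), Il10rb (0.833) and Ncoa7 (0.831), whose log2 fold changes at 8 h ran from Il10rb (0.75) to Ncoa7 (1.25), as a description, since the 8 h libraries took part in the choice of these genes. Between Dmrt1 and Kank1 r was -0.615.

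Some markers of other cells were absent from the cultured cells and others were expressed. Amh of Sertoli cells and Hsd3b1, Insl3 and Lhcgr of Leydig cells had 0 counts in every iSLAM-seq library. Of the 11 Sertoli markers 8 had counts enough to be tested, and of the 6 Leydig markers 2. Leydig markers summed to 8.95 to 17.1 CPM in Ctrl and 8.04 to 14.1 CPM with the fusion. The 11 Sertoli markers summed to 259 to 499 CPM in Ctrl and 314 to 638 CPM with the fusion. Stromal and myoid markers summed to 982 to 1600 and 1170 to 2000 CPM, and core germ cell genes to 2000 to 2750 and 2040 to 2330 CPM. Their part in the differences of Dmrt1 and Kank1 was not tested.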

How the data were processed

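The authors deposited raw read counts per gene for RNA-seq and iSLAM-seq, 1 column per library, and a table of merged RHOX10 peaks with a score and a signed distance to a start site, per the file headers. Per the submitters' processing notes, STAR 2.5.2b, Subread and featureCounts were used for RNA-seq (GRCm38), and Bowtie2 2.2.5, SAMtools and HOMER for CUT&Tag (mm10). Whether iSLAM-seq counts hold all reads or converted reads was not given in the sources used here. The authors' peaks were used as deposited and the control libraries of CUT&Tag were not analysed here.

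Counts were tested with edgeR 4.0.16 in R 4.3.3 (quasi-likelihood test, TMM scaling, filterByExpr, Benjamini-Hochberg over all tested genes, threshold 0.05), with genotype alone for RNA-seq and 12 group means over 24 libraries for iSLAM-seq. Standard errors were derived from F. Lone libraries left after an omission were assumed to vary like the others. All 55536 identifiers matched GENCODE M21. Alternatives used DESeq2 1.42.0, limma 3.58.1 and other scalings, filters and libraries. Nothing beyond the labels says that replicates were separate cultures, so p-values measure the spread between these libraries. The labels name no molecular identifiers. The members, the lists and the rule for named genes (both members, tested genes within 1 Mb, up to 4 per list, 5 most alike) were chosen with earlier results of these data known. Some genes that the rule names are not reported here. On simulated counts the RNA-seq test recovered 200 of 200 genes changed by 1 log2 with 7 false calls among 13211. The 8 h contrast recovered 167 with 5 false calls among 19924. The test of the change from 0 h recovered 106 of 200, also with 5 false calls, so it missed many changes of that size. Only 200 genes were changed in each simulation, far fewer than the data called in the main contrasts. The false calls therefore need not carry over to these data.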

Additional observations from a re-analysis of the deposited data

Results flagged for a closer look

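The change of the Kank1 difference between vectors from 0 to 8 h, a log2 difference of 1.27, was past the threshold of edgeR's test of that difference itself (adjusted p = 0.0497). The call was lost in 16 of 24 fits that left out 1 library (adjusted p up to 0.145) and with germ cell scaling (0.0549). Kank1 fell in Ctrl. With the fusion it stood at 10.2 and 15.8 CPM at 2 h and 8.61 and 12.5 CPM at 4 h, from 17.5 and 18.4 CPM at 0 h, and was within its starting range at 8 h. The test over all 5 later times was not past the threshold (edgeR adjusted p = 0.0989). Of 10 sets of 4 RNA-seq values searched for 1 standing apart, 0 held one.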

How the results depend on the processing

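Of 234 comparisons of a Dmrt1, Kank1 or peak count result with a setting other than leaving out 1 library, 204 stayed the same. For a gene this means the same side of the threshold and no change of sign where either value was called. For the 4 of the peak count it means that the 2 peaks were found. Of the rest 12 lost the call, 16 gained it and 2 changed sign. The causes were not tested. All p-values in this paragraph are adjusted, by edgeR unless DESeq2 is named. Here and below, a course or a change from 0 h with no end named is given by its 8 h part. The p-value beside it is that of the test over all later times, so it does not test that part. Scaled to core germ cell genes, RNA-seq gave 0.331 for Dmrt1 (edgeR adjusted p = 0.00017) and 0.894 for Kank1 (1.05e-11), beside a median of 0.889 for all genes. In iSLAM-seq that scaling gave Dmrt1 -0.038 in the average (0.57), -0.234, -0.01 and -0.012 at 0.5, 1 and 4 h (0.157, 0.968 and 0.964), 0.225 from 0 to 8 h in Ctrl (0.25) and 0.243 with the fusion (0.201 alone, 0.543 over the course), and gave Kank1 0.766 at 0.5 h (0.0267) and 1.266 for the change from 0 to 8 h (0.0549). Library totals gave Kank1 0.355 in RNA-seq (0.00103), beside a median of 0.35 for all genes, and Dmrt1 -0.231 at 0 h (0.0455). With them the fusion's course of Kank1 was called (edgeR adjusted p = 0.025), and its 8 h part was 0.016 against -0.02 with TMM scaling. Tested against a change of 0.5 log2, Dmrt1 in RNA-seq (-0.557) was not called (0.649). With no filter on low counts Kank1's change from 0 h (1.293, 0.00225) and Dmrt1's Ctrl course (0.281, 0.0178) were called, and with at least 1 CPM in 2 libraries Dmrt1 at 4 h (-0.221) was not (0.0588). DESeq2 called Dmrt1 at 0 h (-0.218, 0.0496) and over the Ctrl course (0.293, 0.0151) and Kank1's change from 0 h (1.278, 0.038). Without the 0.5 h libraries, an alternative chosen after seeing the data, Kank1's change from 0 h (1.276, 0.00361) and Dmrt1's Ctrl course (0.287, 0.000119) were called. Fitted on the 4 libraries of a time alone, Dmrt1 was called at 0 h (-0.216, 0.0458), 2 h (-0.182, 0.011) and 8 h (-0.19, 0.000423) and not at 0.5 h (-0.361, 0.35), where that fit called 0 genes.

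Same-numbered libraries did not deviate together (correlations of deviations -0.0192 to 0.014 in RNA-seq and -0.0146 to 0.0353 in iSLAM-seq), so the numbers were not taken to pair them. With a replicate block Dmrt1 was called at 0 h (-0.218, edgeR adjusted p = 0.0434) and over the Ctrl course (0.296, 0.0394), Kank1's change from 0 to 8 h was not (1.267, 0.0571), and RNA-seq called 5066 genes against 5071.

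With 1 library left out at a time, values ranged for Dmrt1 from -0.318 to -0.129 at 0 h, -0.435 to -0.274 at 0.5 h, -0.298 to -0.213 at 1 h, -0.262 to -0.132 at 2 h, -0.247 to -0.21 at 4 h and -0.22 to -0.13 at 8 h. Its change from 0 to 8 h, alone or as the course, ranged from 0.23 to 0.335 in Ctrl and from 0.235 to 0.424 with the fusion. Kank1 ranged from 0.365 to 0.909 at 0.5 h, from 1.243 to 1.341 for its change and from -1.349 to -1.251 in the Ctrl course. In the fusion's course its 8 h part ranged from -0.041 to 0.021, and leaving out the second fusion library of 0 h turned the sign of that small value. The calls of Dmrt1 in RNA-seq (-0.629 to -0.519) and in the average (-0.26 to -0.229), and of Kank1 in the average (0.351 to 0.482) and at 8 h (1.291 to 1.325), held in every such fit.

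Among other named genes 16 values changed sign where the value as reported or under the alternative was called. Germ cell scaling turned Dmrtc2 (0.799), Dmrt3 (0.68), Dock8 (0.575), Pip5k1b (0.7), Fam122a (0.801), Gm10053 (0.539), Cbwd1 (0.825), AC126944.1 (0.774), Dynll1 (0.6), Ywhah (0.712), Cldn11 (0.155) and Aard (0.032) in RNA-seq and Kank2 (0.152) in the average. The medians of all genes under that scaling were 0.889 in RNA-seq and 0.216 in the average. Library totals turned Ywhah (0.173), Dynll1 (0.062) and Gm10053 (0.0). RNA-seq called 7858 genes with library totals, 12264 with germ cell scaling, 3391 with DESeq2 and 487 against 0.5 log2. iSLAM-seq called 314 to 4331 genes over all settings for the change from 0 h and 6966 to 9035 for the average. The 2 peaks were found under all 4 alternatives. The 8 h result of Kank1 rests on 71 to 184 counts a library.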
